A study of Homo sapiens with 6 samples.

Results

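Genes that sense double-stranded RNA (dsRNA) or pass that signal on were followed in OVCAR5, a human line of ovarian cancer cells, after treatment with NTX301, a drug that the series title calls a DNA hypomethylating agent. The 10 genes, of 62656 in the deposited tables, were picked by name for their place in this pathway: RIGI (DDX58 in older tables), IFIH1, DHX58, TLR3, MAVS, EIF2AK2, ADAR, TBK1, IRF3 and IRF7. The NTX301 group held 3 RNA sequencing libraries of cells given 100 nM for 3 days, and the DMSO group held 3 libraries of cells given the solvent dimethyl sulfoxide for 3 days. Both groups were the same line in the same serum-containing medium. No label says that libraries of a group were separate cultures, and the p-values then speak only of spread from library to library, which may be technical. All are bulk libraries of a single line, in which fewer expressing cells and less RNA per cell cannot be told apart.

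Cells carry receptors that recognise long or uncapped dsRNA as a sign of viral infection. RIG-I and MDA5 (encoded by RIGI and IFIH1) read it in the cytosol and signal through MAVS on mitochondria, TLR3 reads it in endosomes, and both routes reach the kinase TBK1 and the factors IRF3 and IRF7, which switch on interferon genes. In other cancer models, drugs that remove DNA methylation have been described to let silenced repeats be transcribed into dsRNA that engages these receptors, a state called viral mimicry. Many genes of the pathway are themselves induced by interferon.

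The libraries held 23194160 to 23842859 estimated counts in the NTX301 group and 22131175 to 25743732 in the DMSO group. DMSO replicate 3 stood apart from the other DMSO libraries on the second principal component, which held 6.34% of the variance, and the change of RIGI and its ratios to MAVS and ADAR are given with and without it. Markers of the line differed widely in level. The keratin gene KRT8 averaged 1064 ± 36.1 CPM in the NTX301 group and 2251 ± 78.3 CPM in the DMSO group (mean ± SD, n = 3 each). CPM is the count relative to library size, scaled between libraries by TMM, a factor that centres the typical gene. KRT7, another keratin gene, lay the other way, at 234 CPM in the NTX301 group and 97.8 CPM in the DMSO group. PAX8 was at 10.0 CPM in the NTX301 group and 8.65 CPM in the DMSO group. WT1 had 10 counts in the NTX301 group and 3 in the DMSO group, too few to test. Summed over 10 epithelial markers the level was 2228 to 2345 CPM in the NTX301 group and 4099 to 4399 CPM in the DMSO group. KRT8 was the largest part of this sum in both groups. Of these markers 3 of 9 tested rose and 5 fell. Summed over 11 leukocyte markers the level was 70.3 to 73.5 CPM in the NTX301 group and 45.0 to 52.1 CPM in the DMSO group, and 2 of 5 tested rose and 1 fell. Most of it was CD68 and CD14, whereas MS4A1 and CLEC4C had no counts and PTPRC, which marks leukocytes in general, had 7 counts in the NTX301 group and 0 in the DMSO group. Summed over 10 endothelial and fibroblast markers it was 21.0 to 21.2 CPM in the NTX301 group and 8.08 to 9.35 CPM in the DMSO group, where 4 of 6 tested rose and 1 fell, with the fibroblast genes DCN, THY1 and FAP at 7 counts or fewer in either group. PDGFRB, a marker of perivascular cells and fibroblasts, was at 8.40 CPM in the NTX301 group and 1.08 CPM in the DMSO group. Of all tested genes 35.4% rose and 35.1% fell. The part of these markers in the results below was not tested.

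The pathway did not move as a block. With NTX301, RIGI, TBK1 and IRF7 rose, DHX58, TLR3 and MAVS fell, and these 6 kept direction and call in all 16 alternative analyses. IFIH1, EIF2AK2 and ADAR fell by small amounts, of which those of EIF2AK2 and ADAR turned positive without a scaling factor and in TPM, and IRF3 was not past the threshold. All 10 passed the filter on low counts. In all, 3 of 10 genes rose and 6 fell (adjusted p under 0.05 in edgeR's quasi-likelihood test, by the method of Benjamini and Hochberg over all 19029 genes tested). Across all tested genes 70.5% were called, 35.4% higher and 35.1% lower, so a count of 9 called genes is not far from what the whole table shows. Scaled levels did not overlap between the groups for 9 of the 10 genes, against 73.7% of all tested genes. Changes were modest: DHX58, TLR3 and IRF7 passed the threshold with at least a 1.5-fold change, as 40.4% of tested genes did, and DHX58 alone with at least a 2-fold change, as 21.9% did. The median log2 fold change of the 10 genes was -0.16, against 0.00 for all tested genes. Without a scaling factor the median was 0.05 for the 10 genes and 0.21 for all tested genes. Then 4 of the 10 genes rose and 3 fell, with 71.1% of all genes called. On log2(TPM + 1), tested with limma, 5 rose and 3 fell, with 67.7% of all genes called. There the median was 0.155 for the 10 genes and 0.169 for all tested genes. On log2(TPM + 0.1) these medians were 0.158 and 0.216. The gap between the medians was thus smaller in TPM than on counts with or without a scaling factor.

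**Figure D1:**
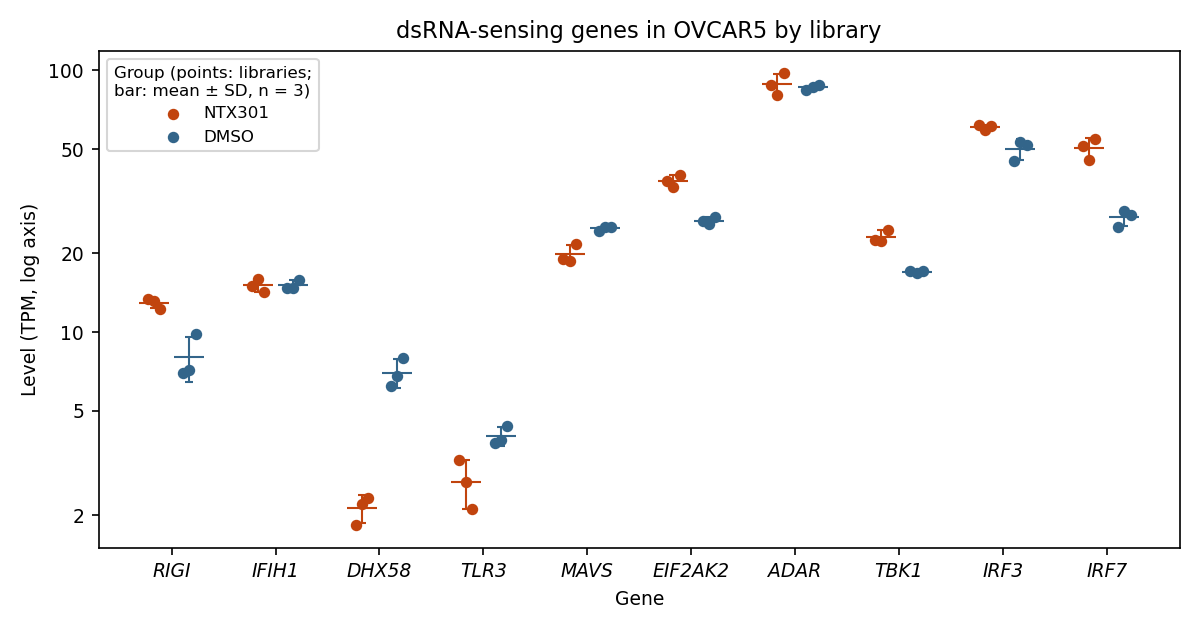
Level of the 10 genes in TPM (transcript abundance per length, log axis) in each library, with NTX301 in orange to the left of DMSO in blue; bars are mean ± SD of 3 libraries. DHX58 lies at 1.83 to 2.33 TPM in the NTX301 libraries and at 6.22 to 7.98 TPM in the DMSO libraries, and IRF7 at 45.5 to 54.9 TPM in the NTX301 libraries and 25.3 to 29.1 TPM in the DMSO libraries.

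Per transcript length, ADAR was the most abundant of the 10 and the receptors the least. In the NTX301 group the order by mean TPM was ADAR (88.4), IRF3 (60.7), IRF7 (50.5), EIF2AK2 (37.9), TBK1 (23.1), MAVS (19.8), IFIH1 (15.1), RIGI (12.9), TLR3 (2.68) and DHX58 (2.12). In the DMSO group it was ADAR (86.1), IRF3 (50.03), IRF7 (27.4), EIF2AK2 (26.7), MAVS (24.9), TBK1 (17.03), IFIH1 (15.1), RIGI (8.01), DHX58 (6.997) and TLR3 (3.77 to 4.37 over the libraries). Only the neighbours TLR3 and DHX58 overlapped among the NTX301 libraries. Among the DMSO libraries IRF7 overlapped EIF2AK2, and RIGI overlapped DHX58. TBK1 and MAVS exchanged places between the groups, as did DHX58 and TLR3. Summed over the 10 genes the level was 314, 296 and 331 TPM in the NTX301 libraries, against 254, 269 and 276 TPM in the DMSO libraries. The same sum in scaled CPM lay the other way, at 665 to 730.1 CPM with NTX301 and 779.6 to 789.6 CPM with DMSO, so the direction of the total depends on the scale.

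RIGI encodes RIG-I, the cytosolic helicase that binds dsRNA ends carrying triphosphates (ENSG00000107201, chromosome 9, 32455705 to 32526324, minus strand; gene positions are those of GENCODE 29 on GRCh38). It had 32.5, 30.6 and 28.2 CPM in the NTX301 libraries, against 19.7, 19.1 and 26.6 CPM in the DMSO libraries. The groups did not overlap, but DMSO replicate 3 lay close under the lowest NTX301 library. RIGI rose by 0.49 ± 0.11 on the log2 scale (estimate ± standard error derived from the test statistic, edgeR adjusted p = 0.0016). Without DMSO replicate 3 the rise of RIGI was 0.63. Leaving out any other library gave 0.39 (without DMSO replicate 2) to 0.54 (without NTX301 replicate 3). IFIH1 encodes MDA5, the related helicase that binds long dsRNA (ENSG00000115267, chromosome 2, 162267079 to 162318703). Its level was 25.1, 26.5 and 24.3 CPM with NTX301, against 29.4, 29.1 and 30.4 CPM with DMSO, without overlap. That is a log2 change of -0.23 ± 0.05 (edgeR adjusted p = 0.0022), which without a scaling factor was -0.02 and missed the threshold (adjusted p = 0.738, range over the alternatives 0.00105 to 0.973). In TPM the IFIH1 values of both groups overlapped, at 14.3 to 15.98 TPM with NTX301 and 14.7 to 15.9 TPM with DMSO.

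DHX58 encodes LGP2, the third helicase of this family, which lacks the signalling domain of the other two and modulates them (ENSG00000108771, chromosome 17, 42101404 to 42112733). It had the largest change of the 10 genes. The NTX301 libraries held 2.46, 2.99 and 2.99 CPM, against 9.78, 10.4 and 11.9 CPM in the DMSO libraries. Every NTX301 library was far below every DMSO library, and DHX58 fell by 1.92 ± 0.12 on the log2 scale (3.79-fold lower, edgeR adjusted p = 5.7e-08). The 3 genes nearest to it by profile over the 6 libraries, from the root mean square difference of centred log2 CPM, were ENSG00000266976 (0.058), SNAI3-AS1 (0.065) and SLC29A2 (0.077). TLR3, the endosomal dsRNA receptor (ENSG00000164342, chromosome 4, 186069152 to 186088069), had 4.56, 4.52 and 3.62 CPM in the NTX301 libraries, against 8.80, 7.46 and 7.90 CPM in the DMSO libraries. Again the groups were apart, and TLR3 fell by 0.93 ± 0.12 on the log2 scale (edgeR adjusted p = 3.0e-05). It rests on few reads, 93 to 115 counts a library with NTX301 and 164 to 207 with DMSO.

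Since several of these receptor genes are known interferon targets and the drug acts on CpG methylation, their promoters are shown for both features. RefSeq windows (GRCh38.p14) of 300 bases, from 250 before to 50 after the start, were found for 7 of the 10 genes. None was available for DHX58, IRF3 and IRF7, so the genes with the largest fall and the largest rise are not covered. They were searched on both strands for GAAA followed by any 2 bases and GAAA again, the core of the interferon-stimulated response element. This core occurred in 3.57% of 35116 windows of all genes, and among the 7 genes in those of IFIH1, EIF2AK2 and TLR3. The windows below run from position -170 to 10 around the start, 5′ to 3′ on the gene's strand, with core matches in capitals. They lie at chr9:32526187-32526366 (minus strand) for RIGI, chr2:162318675-162318854 (minus) for IFIH1, chr4:186068986-186069165 (plus) for TLR3 and chr2:37156971-37157150 (minus) for EIF2AK2.
RIGI: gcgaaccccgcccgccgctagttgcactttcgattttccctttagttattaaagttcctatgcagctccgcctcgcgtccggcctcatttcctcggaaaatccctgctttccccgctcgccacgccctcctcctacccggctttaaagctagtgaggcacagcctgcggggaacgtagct
IFIH1: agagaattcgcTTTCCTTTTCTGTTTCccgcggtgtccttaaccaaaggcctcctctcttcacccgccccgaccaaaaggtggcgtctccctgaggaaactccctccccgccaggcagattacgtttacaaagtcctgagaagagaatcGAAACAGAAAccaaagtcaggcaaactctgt
TLR3: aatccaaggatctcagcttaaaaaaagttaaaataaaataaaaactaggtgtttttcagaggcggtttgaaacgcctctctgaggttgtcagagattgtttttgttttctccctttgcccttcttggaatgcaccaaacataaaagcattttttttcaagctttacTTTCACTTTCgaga
EIF2AK2: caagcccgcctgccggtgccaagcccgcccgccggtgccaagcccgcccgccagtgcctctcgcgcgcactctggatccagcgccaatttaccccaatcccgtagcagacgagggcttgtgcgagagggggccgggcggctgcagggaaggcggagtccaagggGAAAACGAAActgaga
IFIH1 holds 3 matches, of which those starting at -159 and -153 overlap each other. In EIF2AK2 and TLR3 a single match spans the start. RIGI has no match in this window. The CpG count per 300-base window was 27 for RIGI, 30 for EIF2AK2, 34 for MAVS, 35 for TBK1, 12 for IFIH1 and 5 for TLR3, and 13 or 14 in the 3 windows of ADAR, against a median of 14 over all windows (quartiles 4 and 28). Of the genes with 27 or more, RIGI and TBK1 rose, MAVS fell, and EIF2AK2 fell on scaled counts but rose in TPM. IFIH1, TLR3 and ADAR, with lower CpG counts, fell on scaled counts, and only TLR3 did so past the threshold in TPM. Whether matches or CpGs bear on these changes was not tested. A match is a description of the letters and not of a bound factor, and methylation was not analysed here.

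MAVS is the mitochondrial adaptor that RIG-I and MDA5 share (ENSG00000088888, chromosome 20, 3846799 to 3876123). It was at 118, 117 and 129 CPM in the NTX301 libraries, against 177, 178 and 175 CPM in the DMSO libraries. The groups were well apart, and MAVS fell by 0.54 ± 0.04 on the log2 scale (edgeR adjusted p = 4.6e-07). TBK1, the kinase that phosphorylates IRF3 and IRF7 (ENSG00000183735, chromosome 12, 64451880 to 64502108), had 35.4, 34.4 and 36.7 CPM with NTX301, against 30.8, 29.8 and 29.9 CPM with DMSO. It rose by 0.23 ± 0.05 (edgeR adjusted p = 0.00099), a small step that exceeded the spread within either group.

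IRF7, the interferon-inducible factor that amplifies the response (ENSG00000185507, chromosome 11, 612553 to 615999), had the largest rise of the 10 genes. Its level was 51.4, 45.6 and 52.7 CPM in the NTX301 libraries, against 29.6, 32.7 and 30.9 CPM in the DMSO libraries. No NTX301 library came near the DMSO range, and IRF7 rose by 0.68 ± 0.06 on the log2 scale (1.60-fold, edgeR adjusted p = 1.4e-06). IRF3, the factor that is present before any stimulus (ENSG00000126456, chromosome 19, 49659569 to 49665875), had 48.7, 46.7 and 46.9 CPM with NTX301, against 42.6, 49.1 and 47.6 CPM with DMSO. These overlapped, with a log2 change of 0.03 ± 0.06 (edgeR adjusted p = 0.626). Without a scaling factor it was 0.24 (adjusted p = 0.0033) and on log2(TPM + 1) it was 0.28 (limma adjusted p = 0.0152), both past the threshold (range over the alternatives 0.0033 to 0.955). IRF3 shares 734 bases with BCL2L12 on the other strand, which averaged 31.8 ± 1.56 CPM with NTX301 and 18.9 ± 0.449 CPM with DMSO, so reads of one may have been counted for the other.

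**Figure D2:**
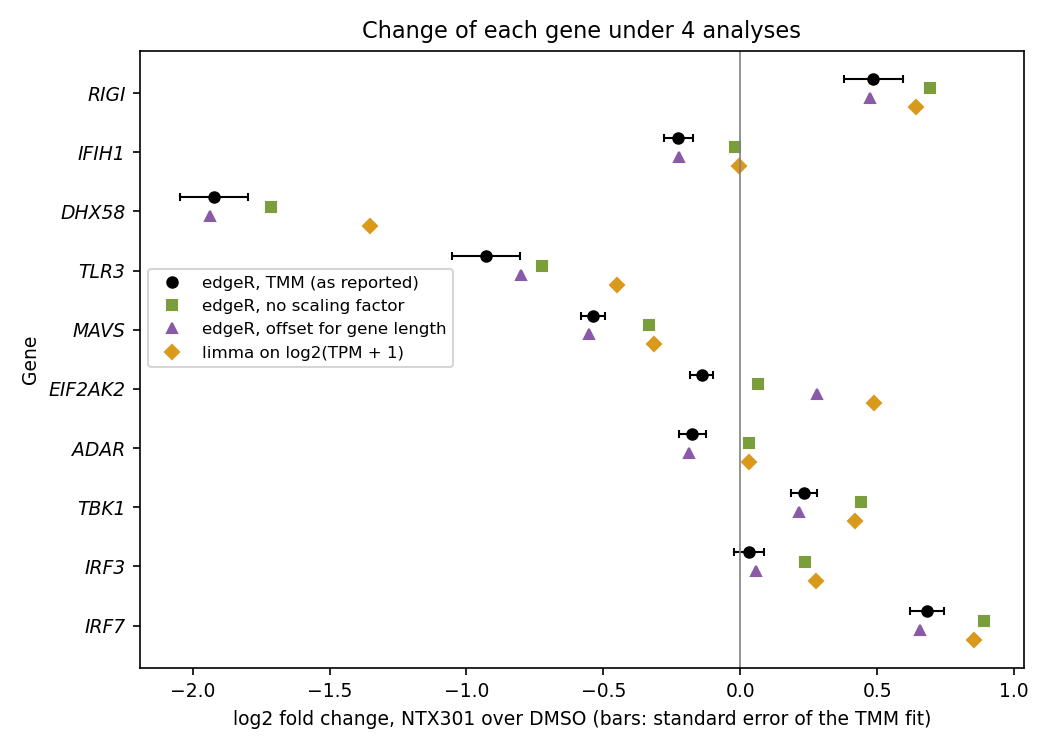
Log2 fold change, NTX301 over DMSO, of each gene (rows) under 4 analyses: the edgeR fit with TMM and its standard error as black circles, and 3 alternatives as coloured symbols. RIGI, TBK1 and IRF7 lie right of 0 and DHX58, TLR3 and MAVS left of it in all 4, while EIF2AK2 runs from -0.14 to 0.49.

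ADAR encodes the deaminase that edits adenosines in dsRNA and so keeps a cell's own RNA from being sensed (ENSG00000160710, chromosome 1, 154582057 to 154628013). It had 298, 274 and 317 CPM in the NTX301 libraries, against 335, 336 and 334 CPM in the DMSO libraries. The NTX301 libraries were lower and far more spread. The log2 change was -0.17 ± 0.05 (edgeR adjusted p = 0.0077), but 0.03 without a scaling factor (adjusted p = 0.596) and 0.03 on log2(TPM + 1) (limma adjusted p = 0.723, range over the alternatives 0.00093 to 0.738). ADAR has an interferon-inducible and a constitutive protein form, which gene tables do not separate.

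EIF2AK2 encodes PKR, the kinase that dsRNA activates to stop translation (ENSG00000055332, chromosome 2, 37099210 to 37157065). By scaled counts it was slightly lower, at 86.5, 82.4 and 88.6 CPM in the NTX301 libraries, against 96.96, 90.9 and 96.1 CPM in the DMSO libraries. By TPM, which divides by transcript length, it was higher, at 37.8, 35.98 and 39.9 TPM in the NTX301 libraries, against 26.6, 25.9 and 27.4 TPM in the DMSO libraries. Neither scale showed overlap between the groups, yet their directions were opposite. The log2 change on counts was -0.14 ± 0.04 (edgeR adjusted p = 0.012), 0.07 without a scaling factor (adjusted p = 0.203), and -0.11 without NTX301 replicate 2 (adjusted p = 0.0531). On log2(TPM + 1) it was 0.49 (limma adjusted p = 0.00035), and with an offset for gene length in edgeR, added after the values were seen, it was 0.28 (adjusted p = 9.2e-05, with 69.1% of all genes called, range over the alternatives 9.2e-05 to 0.203).

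The length that RSEM assigned to EIF2AK2 differed between the groups. RSEM, the program that estimated the counts, reports for each gene a mean transcript length weighted by the share of each transcript. For EIF2AK2 it was 4369, 4343 and 4431 bases in the NTX301 libraries, against 5910, 5842 and 5967 bases in the DMSO libraries. The NTX301 libraries were shorter on average, with a difference of -1525 bases or -25.8% and no overlap (two-sided exact permutation test, p = 0.1, the smallest that 3 against 3 allows; 0.5 after adjustment over the 10 genes). The difference ran from -1558 to -1495 bases when any 1 library was left out. Of 12309 tested genes with several transcripts, 25.4% had lengths that did not overlap between the groups, 6.56% did so with a mean at least 10% longer or shorter, and 0.634% with at least as large a relative shortening. Among the 9473 genes that averaged 100 or more counts the last share was 0.412%. The files list 7 transcripts of EIF2AK2. ENST00000395127 is 4343 bases long in GENCODE 29 and ends at 37105143 on chromosome 2, with 2130 bases of 3′ UTR. ENST00000233057, of which GENCODE 29 holds an earlier version than the files, is 10042 bases long and ends at 37099210, with 8063 bases of 3′ UTR. ENST00000405334 is 1533 bases long with no 3′ UTR, and lengths of the other listed transcripts were not available. The mean length in the NTX301 libraries was close to that of ENST00000395127. In the DMSO libraries the mean lay between ENST00000395127 and ENST00000233057. A gene table does not give the share of each form, and other mixtures of forms could give the same means. The far end of the gene shares 35 bases with GPATCH11 on the other strand, which averaged 30.2 ± 1.00 CPM with NTX301 and 17.6 ± 0.542 CPM with DMSO.

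**Figure D3:**
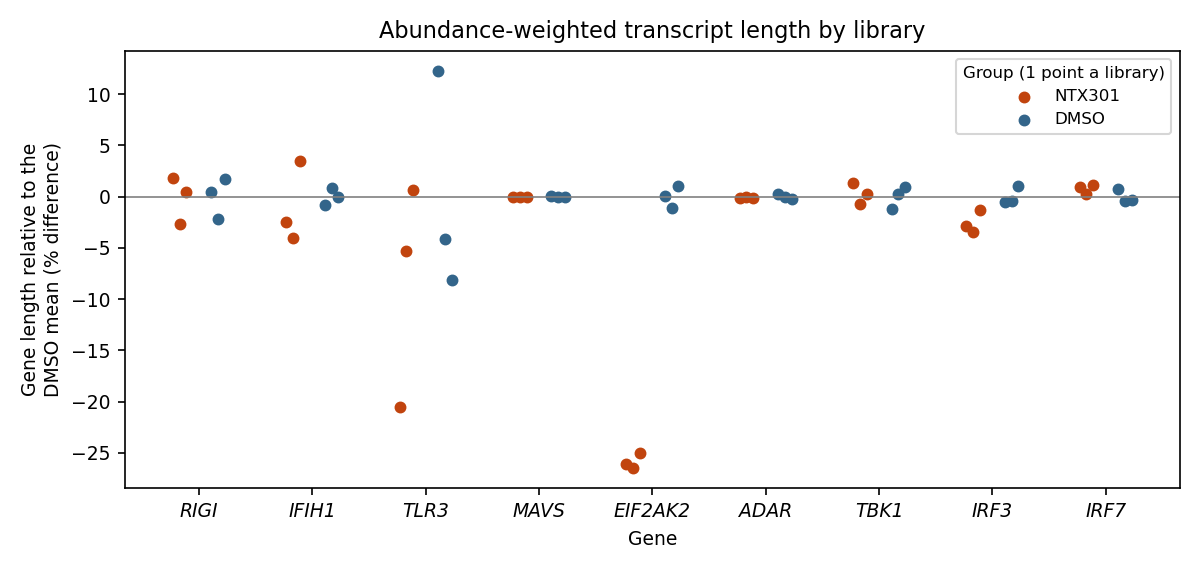
Abundance-weighted transcript length of the 9 genes with several transcripts, as percent difference from the DMSO mean, 1 point per library, NTX301 in orange and DMSO in blue. The 3 NTX301 points of EIF2AK2 lie well below its DMSO points, by 25.8% on average, while the points of most other genes interleave.

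Of the other 9 genes, IRF3 alone had lengths that did not overlap, 1554, 1544 and 1579 bases with NTX301 against 1591, 1592 and 1615 bases with DMSO, a difference of -2.51% (exact permutation p = 0.1). DHX58 has a single transcript and no length variation. ADAR stayed within 6453 to 6480 bases in all libraries, with overlap between the groups, although it has 14 transcripts. TLR3 varied most among libraries, and its groups overlapped, with a mean difference of -8.38%.

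Ratios between genes inside a library do not depend on the scaling of libraries. The groups did not overlap for 7 of 8 gene pairs in TPM and 6 of 8 on counts, where EIF2AK2 to ADAR overlapped too. Of all pairs of tested genes, 69.6% did not overlap in TPM, so the count is near that of the whole table. The 7 pairs were each at the smallest two-sided exact permutation p of 0.1 (0.114 adjusted over the 8 pairs). RIGI stood at 6.09 times the TPM of DHX58 in the NTX301 group and at 1.14 times in the DMSO group (geometric means of 3 libraries). IFIH1 stood at 7.10 times DHX58 with NTX301 and 2.17 times with DMSO. RIGI relative to MAVS was 0.653 with NTX301 and 0.318 with DMSO (0.287 without DMSO replicate 3), and TBK1 relative to MAVS was 1.17 with NTX301 and 0.685 with DMSO. IRF7 relative to IRF3 was 0.830 with NTX301 and 0.549 with DMSO. Against ADAR, the gene that dampens sensing, RIGI was at 0.147 with NTX301 and 0.0921 with DMSO (0.0835 without DMSO replicate 3), and EIF2AK2 at 0.43 with NTX301 and 0.31 with DMSO. The log2 difference of EIF2AK2 to ADAR was 0.47 in TPM and 0.04 on counts. IFIH1 relative to ADAR overlapped, at 0.171 with NTX301 and 0.176 with DMSO (exact permutation p = 0.8).

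The genes around the 10 were also split in direction, as were all tested genes, of which 35.4% rose and 35.1% fell. Without a scaling factor, 8793 of all tested genes rose and 4732 fell. Of 35 tested adaptors and regulators of dsRNA sensing, 10 rose and 17 fell, with a median log2 change of -0.08 (16 rose and 12 fell without a scaling factor). PCBP2, which promotes the breakdown of MAVS, fell by 1.05 ± 0.04 on the log2 scale, UNC93B1, the chaperone of endosomal Toll-like receptors, by 0.97 ± 0.04 and the adaptor TRADD by 0.90 ± 0.06, while TNFAIP3, the A20 brake on inflammatory signalling, rose by 1.02 ± 0.07 (edgeR adjusted p = 9.0e-08 or lower for each). Of 8 tested genes of the 2-5A system and Z-form sensing, 3 rose and 5 fell, with a median of -0.48 (3 rose and 4 fell without a scaling factor). OAS1, which makes 2-5A on binding dsRNA, was at 13.0 ± 1.54 CPM with NTX301 and 34.5 ± 2.24 CPM with DMSO. The OAS relative OASL fell by 1.03 ± 0.08, and MLKL, the executor of necroptosis, rose by 0.85 ± 0.06.

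A further 13 tested genes lie around eIF2alpha, the target that PKR shares with related kinases. Of these, 9 rose and 4 fell, with a median of 0.22 (9 rose and 2 fell without a scaling factor). A link of these changes to PKR was not tested. PPP1R15A, which encodes the GADD34 subunit that removes the phosphate PKR and its relatives put on eIF2alpha, was at 209 ± 4.69 CPM with NTX301 and 45.1 ± 2.06 CPM with DMSO (log2 2.21 ± 0.04, edgeR adjusted p = 2.2e-11). EIF2S1, eIF2alpha itself, rose by 0.88 ± 0.04 and the related kinase gene EIF2AK4 by 0.59 ± 0.04, while DNAJC3, an inhibitor of PKR, fell by 0.76 ± 0.04. Of 9 tested genes of cytosolic DNA sensing, 5 rose and 3 fell (6 and 2 without a scaling factor). CGAS, the DNA sensor, rose by 1.01 ± 0.06, RNASEH2B and RNASEH2A, subunits of a nuclease for RNA paired with DNA, by 0.72 ± 0.05 and 0.66 ± 0.08, and the nucleotide hydrolase SAMHD1 by 0.53 ± 0.05.

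**Figure D4:**
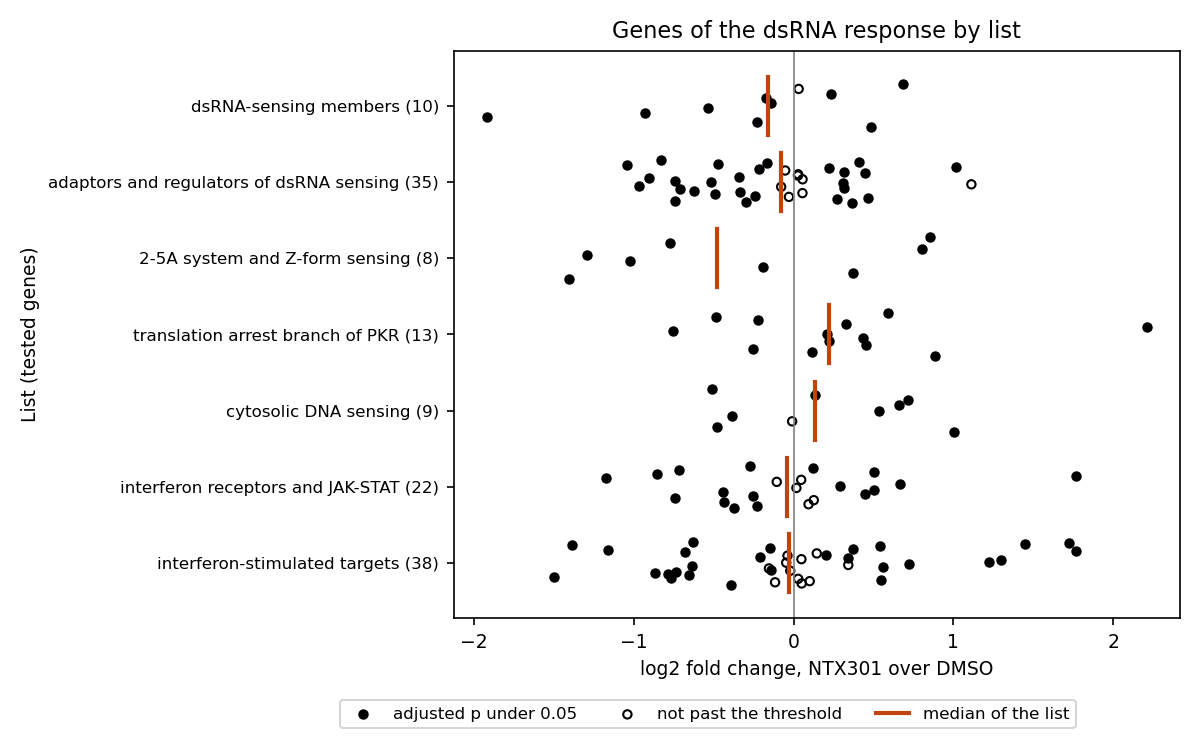
Log2 fold change, NTX301 over DMSO, of each tested gene in the list of 10 and in 6 lists around it; filled points passed the threshold, open points did not, and orange lines are list medians. Every list has genes on both sides of 0, and the medians run from -0.48 to 0.22.

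Interferon genes were near silent in both groups. IFNB1, IFNA2, IFNK, IFNW1 and IFNG had no count in any library, where 3 counts would be 0.117 to 0.145 CPM. IFNA1 had 2 counts over the NTX301 libraries and 4 over the DMSO libraries, and IFNL3 had 2 in each group. IFNL1 had 0 counts with NTX301 and 1 with DMSO, and IFNL2 had 1 with NTX301 and 0 with DMSO. Reads of these near-identical families may be divided wrongly. IFNE, an epithelial interferon and the only 1 of 10 with enough reads to test, had 20 counts over the NTX301 libraries and 107 over the DMSO libraries (log2 -2.56 ± 0.37, edgeR adjusted p = 7.1e-05). For the others, no level above a few counts was seen in either group, and a change below that floor was not detectable at this depth.

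Downstream, 7 of 22 tested genes of interferon receptors and JAK-STAT signalling rose and 10 fell, with a median of -0.04 (9 rose and 7 fell without a scaling factor). SOCS1, a feedback inhibitor of this signalling, rose by 1.77 ± 0.17 to 6.89 ± 0.437 CPM with NTX301, against 2.04 ± 0.576 CPM with DMSO, while its relative SOCS3 fell by 0.86 ± 0.06. IFNGR2, a chain of the interferon gamma receptor, fell by 0.74 ± 0.04. Of 38 tested interferon-stimulated targets, 12 rose and 15 fell, with a median of -0.03 (20 rose and 11 fell without a scaling factor). With scaling, 71.1% of these targets were called, close to the 70.5% of all tested genes. GBP1, an interferon-induced GTPase, was at 32.0 ± 2.88 CPM with NTX301 and 9.36 ± 0.903 CPM with DMSO, and EPSTI1 rose by 1.30 ± 0.13. LGALS3BP was at 167 ± 10.2 CPM with NTX301 and 436 ± 18.9 CPM with DMSO, and IFI44L at 3.18 ± 0.512 CPM with NTX301 and 8.997 ± 0.557 CPM with DMSO. Of the 24 genes that the naming rule picked from these lists, 9 share bases with a tested gene of the opposite strand.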

How the data were processed

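The study sequenced RNA from OVCAR5 cells in 3 NTX301 and 3 DMSO libraries. Groups and replicate numbers come from the labels. Per the labels' protocols, DNase-treated total RNA was made into libraries with a NEBNext Ultra II kit. The authors deposited 1 gene table per library with, per the file headers, RSEM's columns: expected counts (estimated reads per gene, not normalized), TPM (relative abundance per length) and gene length. The deposited FPKM values were not used. Not given in the sources used here were tool versions, the genome build, the annotation release and the strand setting. RSEM divides reads shared between genes by its own estimate.

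Entries for 47 pseudoautosomal Y copies were added to their X copies, leaving 62656 genes, of which 62639 matched a symbol by stable ID. Expected counts were rounded and tested with edgeR 4.0.16 in R 4.3.3 (filterByExpr, TMM, glmQLFit and glmQLFTest, treatment as the only term). Alternatives used limma 3.58.1 and DESeq2 1.42.0. Ratios used log2(TPM + 0.01). The fits were tested on simulated data in which few genes changed, with a pass mark set after a first run. Most genes were called in the real data, so that test does not bear on the scaling. Libraries within a group differed by at least 2.37 in chi-square per degree of freedom, so none was taken for a duplicate. From each list around the 10 genes, up to 4 with the largest change past the threshold and at least 1 CPM are named, apart from a few that are not reported here. The genes and lists were chosen with earlier results of these data known. DHX58, TLR3 and the interferon genes rest on few counts, and floors cover counting error only.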

Additional observations from a re-analysis of the deposited data

How the results depend on the processing

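Under 16 alternatives, RIGI, TBK1, IRF7, DHX58, TLR3 and MAVS kept direction and call. Over all genes, 6744 rose and 6677 fell, and on log2(TPM + 1) and log2(TPM + 0.1) 4273 and 4178 fell. Of the 10 genes, 3 rose and 6 fell. On each of these TPM scales 5 rose and 3 fell, and without a scaling factor 3 fell. EIF2AK2 turned to 0.066 without a scaling factor, 0.49 on log2(TPM + 1), 0.50 on log2(TPM + 0.1) and 0.28 with a length offset, which was chosen after seeing the data. Its deposited length, by which TPM divides, differs between groups, and TPM also lacks the TMM scaling. The part of each in the TPM values was not tested. ADAR turned to 0.032 without a scaling factor, 0.033 on log2(TPM + 1) and 0.034 on log2(TPM + 0.1); the cause was not tested. IRF3, not past the threshold, ran from -0.037 (without DMSO replicate 1) to 0.065 with 1 library left out. With 1 library left out, 3 of the 10 genes rose, 5 or 6 fell, and the 5 came without NTX301 replicate 2. With the replicate number as a block, 6837 genes rose and 6749 fell, and of the 10 genes 3 rose and 6 fell, with no call changed. Same-numbered libraries had correlations of deviations of 0.08, -0.03 and 0.04, and not every library correlated best with its own number, so the numbers were not taken as pairs. Of 560 alternative values for 35 genes picked from the other lists, 556 kept direction and call and 4 (LYZ and LUM, without a scaling factor and in DESeq2) lost the call.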
